A study of Mus musculus with 24 samples.

Results

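The 9 genes described here sense foreign nucleic acid or carry the interferon signal, and were measured in mouse embryonic fibroblasts of genotypes altered in Vhl, Rassf1a or both. They are the RNA sensors Ddx58 (RIG-I) and Ifih1 (MDA5), the adaptor Tmem173 (STING), the transcription factors Irf3, Irf7 and Irf1, the receptor chain Ifnar1, and the factors Stat2 and Irf9. The members were chosen by name for their roles, with earlier results of these data known. They were matched by symbol to the Ensembl identifiers of the count table and number 9 of its 45706 genes. All 9 passed the filter on low counts, which left 16573 genes. Newer annotations call Tmem173 Sting1 and Ddx58 Rigi.

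Total RNA of cultured connective tissue cells from E13.5 embryos was sequenced in 24 libraries. Per the titles, fibroblasts marked WT, Vhl, Rassf1a or Vhl/Rassf1a, hence 4 genotypes, were each sequenced with GFP, which the labels call control, and with Cre, which they call KO for the altered genotypes, in 3 libraries per group. Cre is a recombinase that cuts out DNA between loxP sites, and GFP is a fluorescent protein. The labels do not say how Cre or GFP was delivered, which exons were altered, or whether the 3 libraries of a group stem from separate embryos or cultures. The spread behind every p-value is therefore that between libraries, which may be technical. The design note of the series names renal proximal tubule epithelium and single cells instead; the labels of all 24 samples name embryonic fibroblasts, and that is the term used here.

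RIG-I and MDA5 bind viral or misplaced self RNA in the cytosol and signal through the mitochondrial adaptor MAVS, while STING is activated by the cyclic dinucleotide that cGAS makes when it meets DNA in the cytosol. Both routes activate IRF3 and IRF7, which switch on type I interferon genes. Secreted interferon binds the receptor IFNAR, whose kinases phosphorylate STAT2; it joins IRF9 in the complex ISGF3, which drives interferon-stimulated genes, several of the sensors and factors themselves included. Vhl encodes the substrate-binding subunit of a ubiquitin ligase that marks hypoxia-inducible factors for degradation, and Rassf1a is a scaffold isoform of the Rassf1 gene.

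The start regions of the genes are shown first because the response element of ISGF3 is a short DNA sequence that can be read from them. RefSeq windows of 300 bases (250 before and 50 after the start, GRCm38.p6) matched 8 of the 9 genes, in 10 windows. The core of the interferon-stimulated response element, searched as GAAA, any 2 bases and GAAA on either strand, occurred in 1131 of 32851 such windows (3.44%) and in those of 3 genes, Ddx58, Ifih1 and Stat2. A STAT dimer site, TTCNNNGAA, which reads the same on both strands, occurred in 2726 windows (8.30%) and in those of Irf1 and Ifnar1. No window of Irf3, Irf7 or Irf9 held either motif, which says only that these letters are not in these 300 bases. Matches are shown in capitals, each sequence on the strand of its gene, plus for Stat2, Irf1 and Ifnar1 and minus for Ddx58, Ifih1 and Irf7; Irf7, whose level changed by the most, is shown up to its first annotated base, with neither motif.
Stat2 chr10:128270248-128270497: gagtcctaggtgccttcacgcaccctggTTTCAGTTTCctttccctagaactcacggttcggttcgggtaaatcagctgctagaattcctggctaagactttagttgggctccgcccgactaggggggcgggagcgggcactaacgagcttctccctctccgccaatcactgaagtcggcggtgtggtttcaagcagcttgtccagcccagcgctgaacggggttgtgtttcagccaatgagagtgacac
Ddx58 chr4:40239804-40239833: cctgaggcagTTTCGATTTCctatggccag
Ifih1 chr2:62646206-62646235: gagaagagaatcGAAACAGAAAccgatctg
Irf1 chr11:53769764-53770013: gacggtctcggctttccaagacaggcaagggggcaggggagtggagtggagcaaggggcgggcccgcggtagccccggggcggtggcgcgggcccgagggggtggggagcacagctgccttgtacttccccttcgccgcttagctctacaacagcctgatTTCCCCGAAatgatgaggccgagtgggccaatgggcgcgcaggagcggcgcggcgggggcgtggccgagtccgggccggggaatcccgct
Ifnar1 chr16:91485200-91485229: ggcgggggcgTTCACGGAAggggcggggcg
Irf7 chr7:141266482-141266674: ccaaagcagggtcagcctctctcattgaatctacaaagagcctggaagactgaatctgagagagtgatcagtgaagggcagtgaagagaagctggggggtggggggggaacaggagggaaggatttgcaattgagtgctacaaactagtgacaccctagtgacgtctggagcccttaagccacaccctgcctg
The Stat2 match lay at positions -222 to -213, counted from the first transcribed base as 1. Those of Ddx58 (3 to 12) and Ifih1 (33 to 42) lay just inside the transcript. The Irf1 match lay at -90 to -82 and that of Ifnar1 spanned its start, from -5 to 4. A match of letters is a description and not evidence of binding.

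Libraries held 29934173 to 55849586 counts, and the lowest count of any of the 9 genes in a library was 173, for Irf7. The targeted gene checked the Vhl labels: Vhl stood at 26.7 ± 0.97 CPM (the counts-per-million scale, over TMM library sizes) in Vhl GFP and 2.57 ± 0.26 in Vhl Cre fibroblasts, and at 22.0 ± 1.59 and 2.10 ± 0.52 in the Vhl/Rassf1a pair (SD, n = 3). Rassf1 counted over the whole gene was 27.9 ± 2.90 CPM in Rassf1a GFP and 26.6 ± 1.25 CPM in Rassf1a Cre (SD, n = 3), and it was higher with Cre in the Vhl/Rassf1a pair (32.6 to 45.2 CPM, log2 0.47, adjusted p = 2.81e-04) and in the Vhl pair (26.6 to 43.7 CPM, 0.72, 9.51e-07). A count over the whole gene does not check the loss of 1 isoform, so the Rassf1a labels are unchecked here. All 12 fibroblast markers were above 1 CPM in every group. The 12 macrophage markers summed to 5.49 to 9.07 CPM, and in each group 2 or 3 of them were above 1 CPM in all 3 libraries. Adgre1, C1qa and Tyrobp had 1 to 2 counts in all libraries together, while Itgam had 133 and Fcer1g and Cx3cr1 149 each. Cd68 averaged 2.99 CPM in Vhl/Rassf1a GFP and 4.34 CPM in Vhl/Rassf1a Cre libraries. The 8 lymphocyte and plasmacytoid cell markers summed to at most 0.431 CPM. Replicate 1 of Rassf1a GFP and replicate 2 of Vhl/Rassf1a GFP stood apart: their deviations from their group means correlated at r = 0.496 across 16573 genes, against at most 0.285 for any other of the 252 pairs from different groups. Counts of calls among the 9 genes that changed without them are given both ways. Other values include them unless stated.

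With Cre most of the 9 genes fell in fibroblasts of both genotypes in which Vhl is deleted, and none passed the test in the other 2 genotypes. In Vhl fibroblasts 7 of 9 fell with Cre (Irf7, Stat2, Irf9, Ddx58, Ifih1, Irf1 and Tmem173), where 18.7% of all genes tested fell and 36.1% were called in either direction (17.4% higher). In Vhl/Rassf1a fibroblasts the same 7 and Irf3 fell, against 14.8% of all genes lower, 14.9% higher and 29.7% called. The median of the 9 was -0.77 on the log2 scale in Vhl and -0.98 in Vhl/Rassf1a fibroblasts, beside medians over all genes of -0.01 and 0.00. In WT fibroblasts 0 of 9 passed edgeR's threshold (1.26% of all genes called, 0.833% higher and 0.428% lower), and in Rassf1a fibroblasts 0 of 9 (0.392% called, 0.187% higher and 0.205% lower); unadjusted p under 0.05 was reached by 0 genes in both, and DESeq2 called 0. RNA was measured in bulk, so fewer expressing cells and less RNA per cell cannot be told apart. Every adjusted p below is from edgeR's quasi-likelihood test over all 16573 genes, and errors of log2 changes are SE with 3 libraries against 3.

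**Figure D1:**
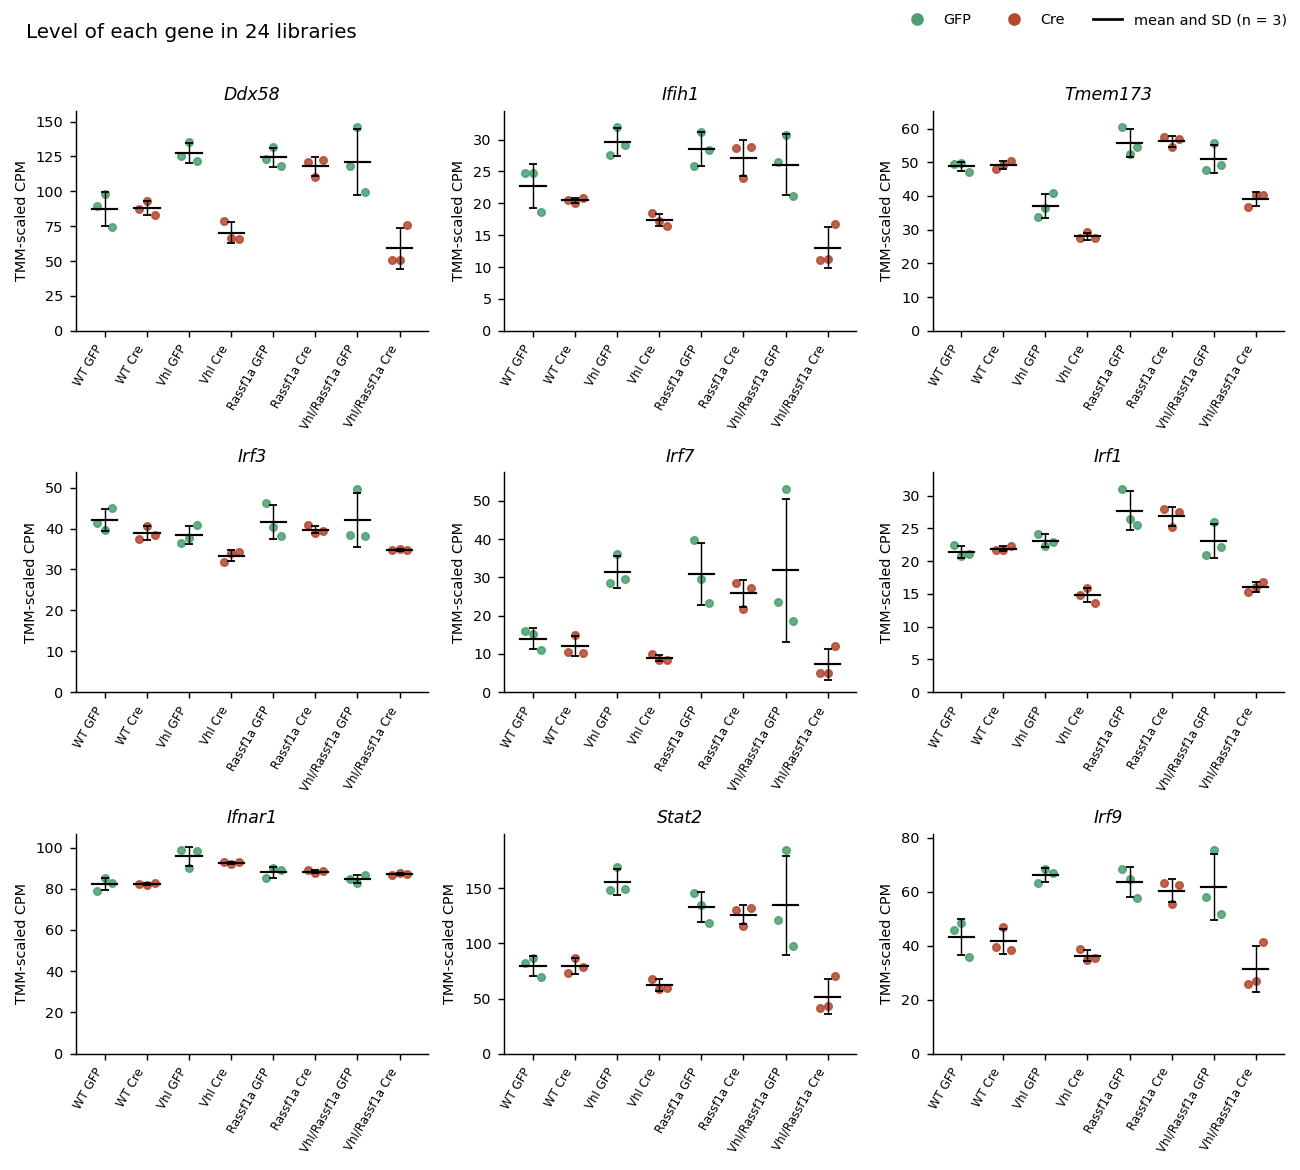
Level of each of the 9 genes in CPM scaled to TMM library sizes (vertical axis, linear from 0) in 24 libraries of 8 groups (horizontal axis); points are libraries, bars the mean and SD of 3. For Irf7, Vhl Cre libraries sit between 8.401 and 9.91 CPM and Vhl GFP libraries between 28.4 and 36.1, while Ifnar1 keeps to 78.9 to 98.8 CPM in all libraries.

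The RNA sensors came down together. Ddx58 (ENSMUSG00000040296, chr4:40203773-40239828) measured 125, 135 and 122 CPM in Vhl GFP libraries and 78.8, 66.8 and 65.5 CPM in Vhl Cre libraries, with no overlap. It fell 1.81-fold (log2 -0.86 ± 0.14, adjusted p = 2.57e-05). In Vhl/Rassf1a fibroblasts Ddx58 went from 118, 146 and 99.2 CPM with GFP to 50.9, 50.5 and 75.9 CPM with Cre, and replicate 3 with Cre lay well above the other 2. This fall was 2.05-fold (log2 -1.04 ± 0.14, adjusted p = 3.59e-06), and -0.88 on the log2 scale (adjusted p = 1.30e-05) without GFP replicate 2. WT libraries spanned 74.5 to 98.2 CPM with GFP and 83.0 to 93.3 with Cre; Rassf1a libraries spanned 118 to 132 and 110.3 to 123, so that the ranges overlapped in both genotypes.

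Ifih1 (ENSMUSG00000026896, chr2:62595798-62646255), the sensor of long double-stranded RNA, fell in the same comparisons. Vhl GFP libraries gave 27.6, 31.9 and 29.2 CPM and Vhl Cre libraries 18.4, 17.3 and 16.5 CPM, a 1.70-fold fall without overlap (log2 -0.77 ± 0.14, adjusted p = 1.43e-04). In the Vhl/Rassf1a pair the values were 26.4, 30.7 and 21.1 CPM with GFP and 11.1, 11.3 and 16.8 CPM with Cre, again apart (log2 -0.996 ± 0.14, adjusted p = 1.10e-05). Without GFP replicate 2 that change was -0.86 (adjusted p = 6.99e-05). WT libraries of Ifih1 held 18.7 to 24.8 CPM with GFP and 20.1 to 20.9 with Cre, and Rassf1a libraries 25.8 to 31.2 and 23.9 to 28.8.

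Tmem173 (ENSMUSG00000024349, chr18:35733679-35740554), the adaptor of DNA sensing, fell by less and from a different start. Its Vhl GFP libraries (33.8, 36.4 and 40.8 CPM) were already below every WT GFP library (49.4, 49.8 and 47.2 CPM), and Vhl Cre libraries were lower still at 27.4, 29.2 and 27.6 CPM. The change with Cre was 1.32-fold (log2 -0.40 ± 0.07, adjusted p = 7.37e-05). Vhl/Rassf1a libraries went from 47.8, 55.8 and 49.3 to 36.8, 40.4 and 40.3 CPM, without overlap (log2 -0.38 ± 0.07, adjusted p = 1.45e-04). The highest levels of this gene were in Rassf1a fibroblasts, 52.5 to 60.4 CPM with GFP and 54.5 to 57.4 with Cre.

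Of the factors activated by the sensors, Irf7 moved by the most of all 9 genes and Irf3 by little. Irf7 (ENSMUSG00000025498, chr7:141262706-141266481) is itself an interferon-stimulated gene and amplifies interferon production. It measured 28.4, 36.1 and 29.5 CPM in Vhl GFP and 9.91, 8.42 and 8.401 CPM in Vhl Cre libraries. These sets lay far apart, a 3.52-fold fall (log2 -1.81 ± 0.33, adjusted p = 1.20e-04). In Vhl/Rassf1a fibroblasts GFP libraries were uneven at 23.7, 53.2 and 18.7 CPM, and so were Cre libraries at 4.97, 4.97 and 12.0 CPM. The fall was 4.35-fold (log2 -2.12 ± 0.33, adjusted p = 3.10e-05), and -1.52 on the log2 scale (adjusted p = 1.15e-04) without GFP replicate 2. WT libraries spanned 11.0 to 16.0 CPM with GFP and 10.3 to 15.0 with Cre; Rassf1a libraries spanned 23.4 to 39.7 and 21.9 to 28.5. The log2 change with Cre had a 95% interval of -0.92 to 0.45 in WT and -0.88 to 0.38 in Rassf1a fibroblasts, wider than for any other of the 9. Irf7 shares 45 exonic bases with Phrf1 on the opposite strand; the kit was stranded per the labels, but no source used here states the strand setting of the counting, and reads of that stretch are uncertain.

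Irf3 (ENSMUSG00000003184, chr7:44997648-45002848) is present before any stimulus and is activated by phosphorylation rather than by new RNA. Vhl GFP libraries held 36.6, 37.7 and 41.0 CPM and Vhl Cre libraries 31.9, 33.9 and 34.3 CPM. The ranges did not overlap, but the difference of -0.20 ± 0.08 did not pass the threshold (adjusted p = 0.0629, 95% interval -0.38 to -0.03); it did with only these 2 groups in the fit (adjusted p = 0.00675) and without the filter on low counts (0.0289). In Vhl/Rassf1a fibroblasts it passed (38.4, 49.8 and 38.1 against 34.7, 34.9 and 34.7 CPM, log2 -0.28 ± 0.08, adjusted p = 0.0139). Without GFP replicate 2 that call was lost (log2 -0.14, adjusted p = 0.124), as it was with both libraries named above left out (-0.13, 0.0755) and with the other 6 groups left out of the fit (-0.28, 0.109). Irf3 shares 88 exonic bases with Bcl2l12 on the opposite strand.

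Irf1 (ENSMUSG00000018899, chr11:53770014-53778374), an activator induced mostly by interferon gamma and also by type I interferon, fell in both genotypes with little spread among the Cre libraries. It went from 24.2, 22.3 and 22.9 to 14.8, 15.8 and 13.7 CPM in Vhl fibroblasts (1.56-fold lower, log2 -0.64 ± 0.08, adjusted p = 1.14e-06). In the Vhl/Rassf1a pair it went from 20.9, 26.0 and 22.2 to 15.3, 16.1 and 16.8 CPM (1.44-fold lower, log2 -0.52 ± 0.08, adjusted p = 2.62e-05). Neither pair overlapped. WT libraries with either construct stayed between 20.7 and 22.4 CPM. Its overlap with Gm17334 on the opposite strand is 135 exonic bases, and that gene had 104 counts in all libraries against 20678 for Irf1.

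Ifnar1 (ENSMUSG00000022967, chr16:91485238-91507441), a chain of the type I interferon receptor, did not pass the threshold with Cre in any genotype. Vhl libraries gave 98.8, 90.2 and 98.1 CPM with GFP and 92.9, 92.1 and 92.8 with Cre, which overlap (log2 -0.05, 95% interval -0.13 to 0.04). Vhl/Rassf1a libraries gave 84.8, 82.8 and 86.7 CPM with GFP and 86.8, 87.7 and 87.2 with Cre (log2 0.04, 95% interval -0.04 to 0.13). These last ranges were just apart, with Cre higher.

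Below the receptor, both partners of ISGF3 among the 9 genes fell, Stat2 by more than Irf9. Stat2 (ENSMUSG00000040033, chr10:128270559-128292849) went from 148, 169 and 149.5 CPM in Vhl GFP to 68.1, 58.6 and 59.8 CPM in Vhl Cre libraries, a 2.502-fold fall (log2 -1.32 ± 0.18, adjusted p = 3.91e-06). In the Vhl/Rassf1a pair Stat2 went from 121, 185 and 98.2 to 41.6, 43.1 and 70.2 CPM (2.61-fold, log2 -1.38 ± 0.18, adjusted p = 3.66e-06). No library of a Cre group reached the lowest of its GFP group. Without GFP replicate 2 the change was -1.08 (adjusted p = 5.85e-06). WT libraries held 69.5 to 86.8 CPM with GFP and 73.0 to 87.0 with Cre, and Rassf1a libraries 118 to 146 and 116 to 132, so both Vhl-deleted groups ended below the WT means of 79.4 CPM.

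Irf9 (ENSMUSG00000002325, chr14:55603571-55610030), the subunit that recognises the response element, gave 63.4, 68.5 and 67.0 CPM in Vhl GFP and 38.9, 34.8 and 35.4 CPM in Vhl Cre libraries. That was a 1.82-fold fall without overlap (log2 -0.87 ± 0.15, adjusted p = 6.24e-05). Vhl/Rassf1a libraries gave 58.1, 75.5 and 51.7 CPM with GFP and 25.7, 27.0 and 41.2 with Cre (1.97-fold, log2 -0.98 ± 0.15, adjusted p = 2.22e-05). This last change was -0.81 on the log2 scale without GFP replicate 2 (adjusted p = 1.02e-04). Irf9 shares 123 exonic bases with Rnf31 on the same strand, where reads of either gene cannot be told apart.

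**Figure D2:**
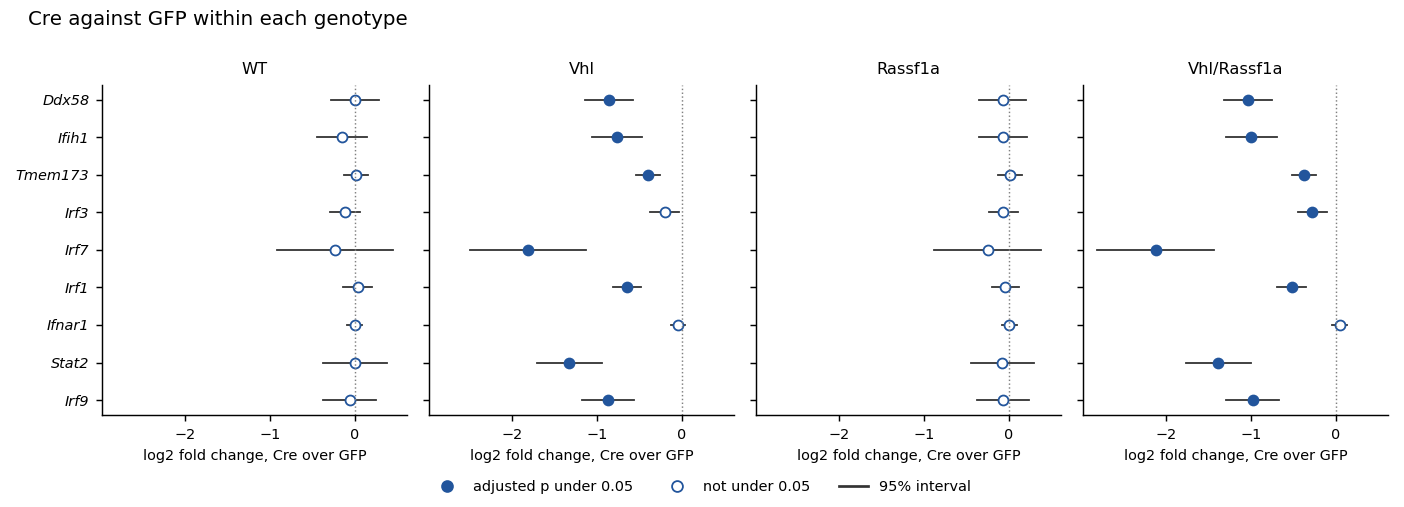
Log2 fold change of Cre over GFP (horizontal axis) for each of the 9 genes (vertical axis) in the 4 genotypes; points are edgeR estimates, bars 95% intervals, filled points have an adjusted p under 0.05. All 9 points are open in WT and in Rassf1a; 7 are filled in Vhl and 8 in Vhl/Rassf1a, with Irf7 farthest left at -1.81 and -2.12.

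The fall went beyond what Cre did in WT fibroblasts. The test of the difference between the Cre effects called 7 of 9 genes lower in Vhl against WT (12.5% of all genes lower, 10.7% higher, 23.2% called), from -1.58 ± 0.47 for Irf7 and -1.32 ± 0.26 for Stat2 to -0.41 ± 0.10 for Tmem173. The Ifih1 call there (-0.61 ± 0.20, adjusted p = 0.0282) was lost in 6 of the 12 fits with 1 library left out, and that of Irf7 without WT Cre replicate 2 (adjusted p = 0.0503). The test called the same 7 lower in Vhl/Rassf1a against WT (7.40% of all genes lower, 7.41% higher, 14.8% called), from -1.89 ± 0.47 for Irf7 and -1.38 ± 0.26 for Stat2 to -0.39 ± 0.10 for Tmem173. Both use the same WT libraries. In Rassf1a against WT edgeR called 0 of 9 (0.00603% of all genes), with 0 at an unadjusted p under 0.05 and 0 by DESeq2.

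The Cre effect in Vhl/Rassf1a was also set against that in Vhl fibroblasts. With the Rassf1a labels unchecked, this compares the genotypes as labelled and does not test the loss of Rassf1a itself. EdgeR called 0 of 9 genes (6.09% of all genes, 3.44% higher and 2.65% lower), with 0 at an unadjusted p under 0.05 and 0 by DESeq2. The 95% intervals of the difference leave room for change in both directions: -1.27 to 0.65 for Irf7, -0.59 to 0.47 for Stat2, -0.55 to 0.32 for Irf9, -0.58 to 0.22 for Ddx58 and -0.65 to 0.19 for Ifih1. With both libraries that stood apart left out, Irf7 came to 0.30 in place of -0.31 and Stat2 to 0.25 in place of -0.06, neither of which passed. The intervals were narrower for Tmem173 (-0.18 to 0.22), Irf1 (-0.12 to 0.36), Irf3 (-0.32 to 0.17) and Ifnar1 (-0.03 to 0.21). A p that misses the threshold does not show that both genotypes respond alike.

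Markers of cell types moved with Cre in Vhl and Vhl/Rassf1a fibroblasts as well. The shares of all genes called are those given above for Cre against GFP. The 8 epithelial markers summed to between 37.8 and 39.0 CPM with GFP and 126 and 146.5 CPM with Cre in Vhl libraries (5 of 5 tested rose), and to 75.5 to 97.1 and 194 to 201 CPM in the Vhl/Rassf1a pair (3 of 5 rose), mostly through Krt19 (log2 1.85 ± 0.12 and 1.28 ± 0.12); of 12 fibroblast markers 5 fell and 1 rose in Vhl fibroblasts, where they summed to 34120 to 36160 CPM with GFP and 27030 to 29730 with Cre, and 2 rose and 1 fell in Vhl/Rassf1a fibroblasts. Of 7 endothelial markers tested 4 rose and 1 fell in Vhl (Cdh5 2.85, Emcn 1.59 and Kdr 0.94 upward, Erg -2.43) and 2 rose and 1 fell in Vhl/Rassf1a fibroblasts, at sums of 11.9 to 16.3 CPM over all groups. Macrophage markers summed to 7.50 to 8.01 CPM with GFP and 7.13 to 7.58 with Cre in Vhl fibroblasts; of 5 tested, Ptprc rose (2.02, to 0.291 CPM) and Cd14 fell (-0.52), and in Vhl/Rassf1a fibroblasts Cd68 rose (0.54). Among the fibroblast markers, Dcn and Postn were the 2 that rose in Vhl/Rassf1a fibroblasts (log2 0.74 and 0.60). Both rose with Cre in WT fibroblasts too (0.80, adjusted p = 0.0011, and 0.52, adjusted p = 0.0093). Between the Cre effects in Vhl/Rassf1a and WT, edgeR called 0 of 12 fibroblast markers higher and 1 lower (7.41% and 7.40% of all genes). Between those in Vhl and WT it called 0 higher and 7 lower (10.7% and 12.5% of all genes), with a median of -0.67. The part of these markers in the fall of the 9 genes was not tested. The X-linked Xist fell with Cre in Vhl fibroblasts (262.5 to 170.8 CPM, adjusted p = 0.00998) and the Y-linked Ddx3y rose (41.0 to 58.2 CPM, adjusted p = 0.00143); the part of either was not tested.

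With GFP, the fibroblasts of altered genotypes already differed from WT in several of the 9 genes. Vhl GFP libraries were higher than WT GFP libraries in 6 (17.2% of all genes higher, 32.1% called): Irf7 2.22-fold, Stat2 1.96-fold, Irf9 1.53-fold, Ddx58 1.46-fold, Ifih1 1.30-fold and Ifnar1 1.16-fold. Tmem173 was lower (log2 -0.40 ± 0.07, adjusted p = 8.76e-05; 14.9% of all genes lower). The Ifih1 call (adjusted p = 0.042) was lost without WT GFP replicate 3 (0.211) and without Vhl GFP replicate 1 (0.0522), 2 (0.151) or 3 (0.0741). A replicate block in the fit also lost it (0.0559). Irf7, for example, held 16.0, 15.1 and 11.0 CPM in WT GFP libraries, all below the lowest Vhl GFP library at 28.4 CPM. This comparison shares the Vhl GFP libraries with that of Cre against GFP, so the same values enter both.

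Rassf1a GFP libraries were higher than WT GFP in 5 genes (9.39% of all genes higher, 6.68% lower, 16.1% called): Irf7 (log2 1.13 ± 0.32, adjusted p = 0.0162), Stat2 (0.74 ± 0.18, 0.00519), Irf9 (0.55 ± 0.15, 0.0118), Ddx58 (0.51 ± 0.14, 0.0114) and Irf1 (0.37 ± 0.08, 0.00188). The count was 4 without Rassf1a GFP replicate 1, where Irf7 lost its call (0.90, adjusted p = 0.0765), 7 without both libraries that stood apart, and 2 without WT GFP replicate 3. Vhl/Rassf1a GFP libraries were higher in 4 (6.86% of all genes higher, 4.68% lower, 11.5% called), Irf7, Stat2, Irf9 and Ddx58, by 1.18, 0.76, 0.51 and 0.47 on the log2 scale. That result rested on 1 library: edgeR called 0 of the 9 without Vhl/Rassf1a GFP replicate 2, where Irf7 came to 0.58 (adjusted p = 0.191), and 1 gene, Stat2, with both libraries that stood apart left out. Without WT GFP replicate 3 or replicate 1 the counts were 1 and 2. In this comparison of genotypes Ddx3y stood at 50.9 CPM in WT GFP, 41.0 in Vhl GFP, 23.7 in Rassf1a GFP and 16.5 in Vhl/Rassf1a GFP libraries on average. Fibroblast markers were higher than in WT GFP in 6 of 12 (2 lower) in Vhl, 10 of 12 in Rassf1a and 1 of 12 in Vhl/Rassf1a GFP libraries, with medians of 0.34, 0.58 and 0.13, and higher than in WT Cre in 8 of 12 in Rassf1a Cre libraries (median 0.43). In Vhl Cre libraries 6 of 12 were lower and 1 higher than in WT Cre, and in Vhl/Rassf1a Cre libraries 2 were lower. The part of either in the differences from WT was not tested.

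Compared with WT Cre libraries, the Vhl-deleted cells were not simply low in all 9 genes. The 4 of 9 called in Vhl Cre against WT Cre lay near the 44.7% of all genes called. That count is no result about the 9 as a set. In Vhl Cre against WT Cre 3 genes were lower (21.9% of all genes lower, 44.7% called), Tmem173 (log2 -0.81 ± 0.07, adjusted p = 1.79e-09), Irf1 (-0.57 ± 0.08, 5.34e-06) and Irf3 (-0.22 ± 0.08, 0.0378). The Irf3 call was lost without WT Cre replicate 2 (adjusted p = 0.109) or replicate 3 (0.0657) and without Vhl Cre replicate 1 (0.119) or replicate 2 (0.0547). Ifnar1 was higher (0.17 ± 0.04, adjusted p = 0.00162; 22.8% of all genes higher). Irf7, Stat2, Irf9, Ddx58 and Ifih1, which had fallen furthest with Cre, came to -0.43, -0.35, -0.20, -0.32 and -0.24 here and did not pass. Ddx58 passed with DESeq2 (adjusted p = 0.0457), and all 5 passed when the fit held only these 2 groups. That fit called 9 of the 9 genes in place of 4, and 8313 genes over the whole table in place of 7413.

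Vhl/Rassf1a Cre libraries were lower than WT Cre in 6 genes (15.8% of all genes lower, 17.5% higher, 33.4% called), from Ifih1 (log2 -0.65 ± 0.14, adjusted p = 0.00121) and Stat2 (-0.62 ± 0.18, 0.0108) through Ddx58 (-0.57), Irf1 (-0.45) and Irf9 (-0.41) to Tmem173 (-0.33). Irf7 at -0.70 ± 0.34 did not pass (adjusted p = 0.122); without Vhl/Rassf1a Cre replicate 3, whose 12.0 CPM stood above the other 2, it did (-1.27, adjusted p = 0.00805). The count was 4 without Vhl/Rassf1a Cre replicate 1 or replicate 2, where Stat2 (adjusted p = 0.0721 and 0.0647) and Irf9 (0.202 and 0.164) lost their calls. Irf9, at an adjusted p of 0.0381 with all libraries and with overlapping ranges, also lost its call without WT Cre replicate 1 (0.0535) or 2 (0.154). Rassf1a Cre libraries were higher than WT Cre in 5 genes (7.09% of all genes higher, 5.30% lower, 12.4% called), Irf7 (1.11 ± 0.32, adjusted p = 0.0235), Stat2 (0.67 ± 0.18, 0.0147), Irf9 (0.54 ± 0.15, 0.0166), Ddx58 (0.43 ± 0.14, 0.0408) and Irf1 (0.30 ± 0.08, 0.0141). These calls were fragile. The count was 0 without Rassf1a Cre replicate 3, 1 when either Rassf1a Cre replicate 1 or WT Cre replicate 1 was left out, and 2 with WT Cre replicate 3 left out, while DESeq2 called 7 with all libraries.

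**Figure D3:**
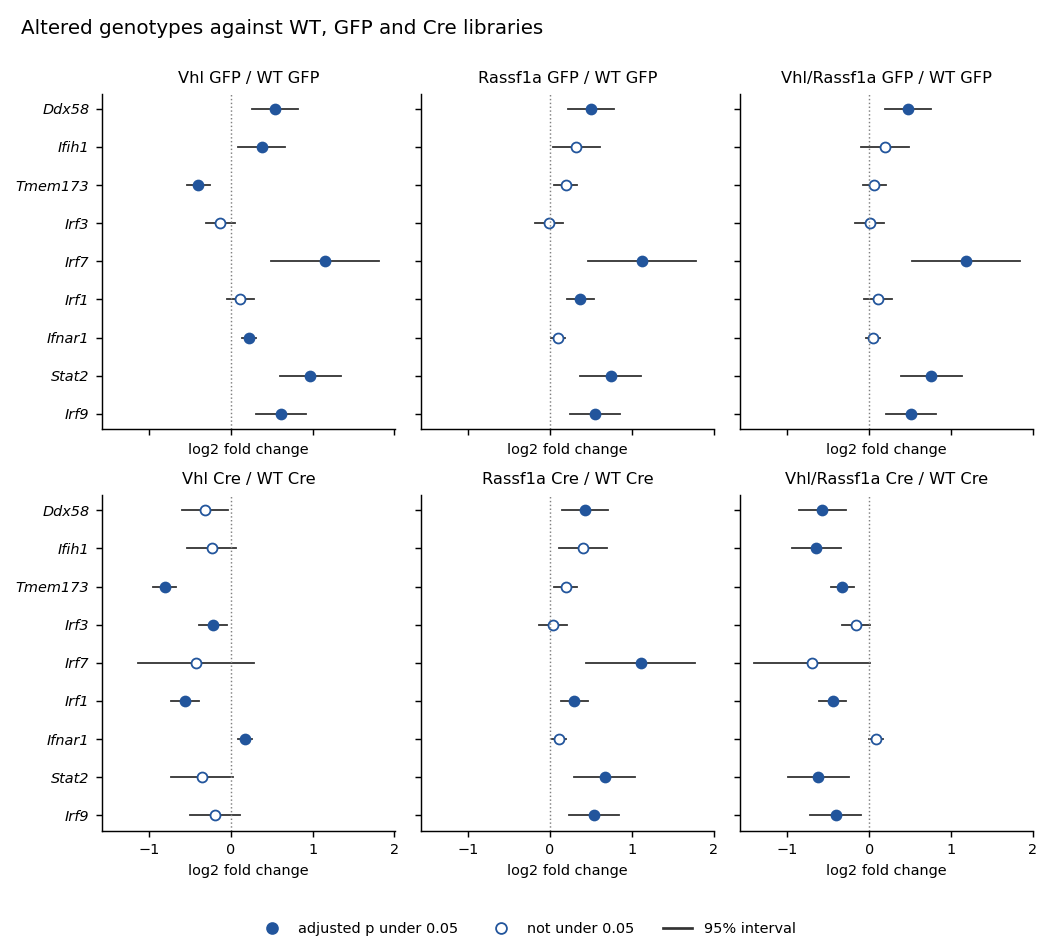
Log2 fold change (horizontal axis) of each of the 9 genes (vertical axis) in altered genotypes against WT, GFP libraries in the upper row and Cre libraries in the lower row; points are edgeR estimates, bars 95% intervals, filled points have an adjusted p under 0.05. Irf7, Stat2, Irf9 and Ddx58 lie right of 0 in all 3 GFP panels and in Rassf1a Cre, and left of 0 in both panels with Vhl deleted.

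The order of groups separated the genes into sets with different ranges. Irf7 spanned 4.36-fold from its lowest to its highest group mean, Stat2 3.01-fold, Ifih1 2.26-fold, Ddx58 2.16-fold, Irf9 2.12-fold, Tmem173 2.01-fold, Irf1 1.87-fold, Irf3 1.26-fold and Ifnar1 1.16-fold. For Irf7, Stat2, Irf9, Ddx58 and Ifih1 the 2 lowest groups were Vhl/Rassf1a Cre and Vhl Cre, whose ranges overlapped. The 2 WT groups came next and overlapped each other, and the other 4 groups were highest, each overlapping its neighbour. For Irf7, Stat2, Irf9 and Ddx58 a gap without overlap separated WT GFP from those 4. It was narrow for Ddx58, from 98.2 CPM in WT GFP to 99.2 CPM in Vhl/Rassf1a GFP. Tmem173 and Irf1 were lowest in Vhl Cre (28.1 ± 0.97 and 14.8 ± 1.09 CPM, SD, n = 3) and highest in Rassf1a fibroblasts. Ifnar1 had another order, with both WT groups lowest (82.2 and 82.3 CPM) and both Vhl groups highest (92.6 and 95.7 CPM).

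Divided by exonic length, the levels can be compared between genes. In WT GFP fibroblasts Ddx58 (22.6 ± 3.11 CPM per kb), Tmem173 (21.2 ± 0.62), Ifnar1 (21.1 ± 0.80), Irf3 (19.2 ± 1.24) and Stat2 (18.1 ± 2.02) were close to each other, Irf9 followed at 14.0 ± 2.14, and Irf1, Irf7 and Ifih1 were lowest at 6.41 ± 0.27, 5.86 ± 1.11 and 4.15 ± 0.64 CPM per kb (SD, n = 3). In Vhl GFP fibroblasts Stat2 and Ddx58 led at 35.4 ± 2.67 and 32.9 ± 1.82 CPM per kb, and Irf7 at 13.1 ± 1.74 was well above Irf1 at 6.93 ± 0.29. In Vhl/Rassf1a Cre fibroblasts Ifnar1 led at 22.3 ± 0.12 CPM per kb, Stat2 had dropped to 11.7 ± 3.66, and Irf7 at 3.05 ± 1.69 was below Irf1 at 4.81 ± 0.22. Ifnar1 kept between 21.0 and 24.5 CPM per kb in all 8 group means.

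The rest of the pathway was read from lists by role, 86 of whose genes were tested. They too were chosen with earlier results of these data known. The lists are given by their counts and medians with Cre against GFP, and were not tested against each other. Of all genes tested 18.7% fell and 17.4% rose in Vhl fibroblasts (36.1% called). In Vhl/Rassf1a fibroblasts 14.8% fell and 14.9% rose (29.7% called). The counts of adaptors and kinases lay near these shares and are no result about that list. Of 10 other sensors 6 fell in Vhl and 6 in Vhl/Rassf1a fibroblasts (medians -0.58 and -0.51), among them Zbp1, a sensor of Z-form nucleic acid (log2 -2.30 ± 0.37 and -2.23 ± 0.37), Nlrc5, the activator of MHC class I genes (-1.09 ± 0.17 and -1.31 ± 0.17), and Eif2ak2, the kinase PKR (-0.64 ± 0.11 and -0.55 ± 0.11). Dhx58, the relative of RIG-I also known as LGP2, was at -2.02 ± 0.31 in Vhl/Rassf1a fibroblasts. Of 11 adaptors and kinases 3 fell and 1 rose in Vhl and 2 fell and 1 rose in Vhl/Rassf1a fibroblasts (medians 0.03 and 0.04). Those were Trim25, a ubiquitin ligase acting on RIG-I (-0.60 ± 0.09 and -0.47 ± 0.09), Myd88 (-0.44 ± 0.09 and -0.27 ± 0.09), Traf3 in Vhl alone (-0.17 ± 0.05) and, upward, Traf6 (0.56 ± 0.06 and 0.49 ± 0.06); whether Traf3 differed between the genotypes is not shown by these calls.

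Of 8 receptor chains and Janus kinases 2 rose in Vhl and 3 rose and 1 fell in Vhl/Rassf1a fibroblasts (medians 0.01 and 0.15). The 2 of 8 in Vhl lay near the 17.4% of all genes that rose there, and are no result about that list. The same holds for the 2 of 10 other IRF and STAT factors, named below, that rose in each genotype (17.4% and 14.9% of all genes). Jak1, which binds the partner chain of Ifnar1, rose by 0.18 ± 0.04 and 0.19 ± 0.04, and Ifngr1, of the interferon gamma receptor, by 0.24 ± 0.05 and 0.25 ± 0.05. The partner chain itself, Ifnar2, was at -0.15 ± 0.06 in Vhl/Rassf1a fibroblasts (adjusted p = 0.04996). Of 10 other IRF and STAT factors tested 4 fell and 2 rose in each genotype; Stat5a, a factor of cytokine and growth hormone signalling, fell (-0.74 ± 0.07 and -0.34 ± 0.07), while Stat6, a factor of interleukin signalling, rose (0.29 ± 0.05 and 0.23 ± 0.05). None of 9 interferon genes passed the filter on low counts. Ifnb1 had 14 counts and Ifne 12 in all 24 libraries together, Ifna4 and Ifnk had 2 and 1, and Ifna2, Ifna5, Ifng, Ifnl2 and Ifnl3 had 0.

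Downstream, 28 of 30 interferon-stimulated effectors fell in each genotype (medians -1.45 and -1.80). Ifitm3, a membrane protein that blocks virus entry, stood at 304.2 CPM in Vhl GFP and 116 CPM in Vhl Cre libraries on average (log2 -1.39 ± 0.14), and Bst2, which tethers budding virus, at 141 and 32.5 CPM in the Vhl/Rassf1a pair (-2.11 ± 0.25). Of 17 brakes on the pathway 7 fell and 1 rose in Vhl and 6 fell and 1 rose in Vhl/Rassf1a fibroblasts, with Usp18, which blocks IFNAR signalling, at -2.19 ± 0.36 and -2.62 ± 0.37. In WT and in Rassf1a fibroblasts edgeR called 0 of the 86 genes with Cre (1.26% and 0.392% of all genes), with 7 and 3 at an unadjusted p under 0.05. The GFP libraries of altered genotypes were higher than WT GFP in 21 (Vhl), 19 (Rassf1a) and 13 (Vhl/Rassf1a) of the 30 effectors, beside the 6, 5 and 4 of the 9 genes above. Of all genes tested 17.2%, 9.39% and 6.86% were higher in these comparisons.

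**Figure D4:**
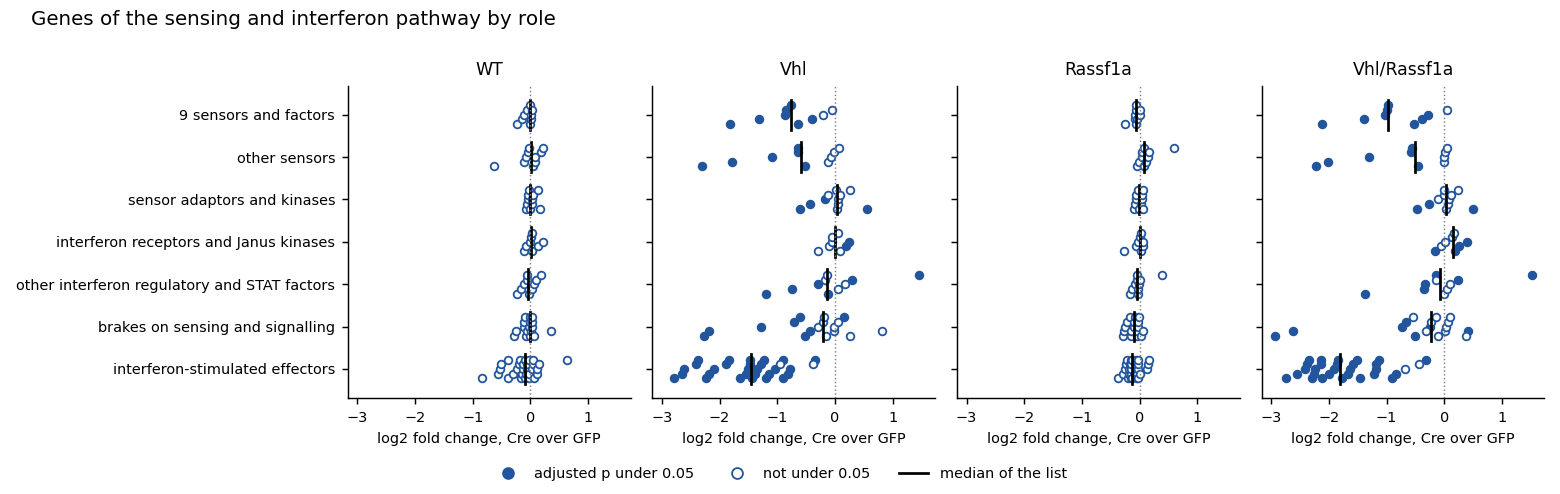
Log2 fold change of Cre over GFP (horizontal axis) for the 9 genes and 6 lists of pathway genes by role (vertical axis) in the 4 genotypes; each point is a gene tested, filled where the adjusted p is under 0.05, and the bar is the median of the list. Effectors have medians of -1.45 in Vhl and -1.80 in Vhl/Rassf1a fibroblasts, adaptors and kinases 0.03 and 0.04.

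Across all 24 libraries Irf7, Stat2, Irf9, Ddx58 and Ifih1 had the highest correlations with each other, and Irf1 came next. Pearson's r of log2 CPM was 0.99 for Irf7 with Irf9, 0.99 for Irf7 with Stat2 and 0.97 for Ddx58 with Ifih1, and also 0.98 for Irf7 with Stat2 when each library was taken as its deviation from its group mean. In Vhl/Rassf1a GFP replicate 2, Irf7 was 0.89 above its group mean on the log2 scale, Stat2 0.51, Irf9 0.31, Ddx58 0.29 and Ifih1 0.25, and in Vhl/Rassf1a Cre replicate 3 they were 0.84, 0.49, 0.43, 0.39 and 0.39 above. Irf1 correlated with those 5 genes at 0.80 (Ifih1) to 0.84 (Ddx58) over the 24 libraries, and at 0.30 to 0.64 as deviations from group means. Irf3 and Tmem173 correlated at 0.75 and Ifnar1 ran against Tmem173 at -0.57. These values describe libraries that share their group and their scaling, and carry no p.

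**Figure D5:**
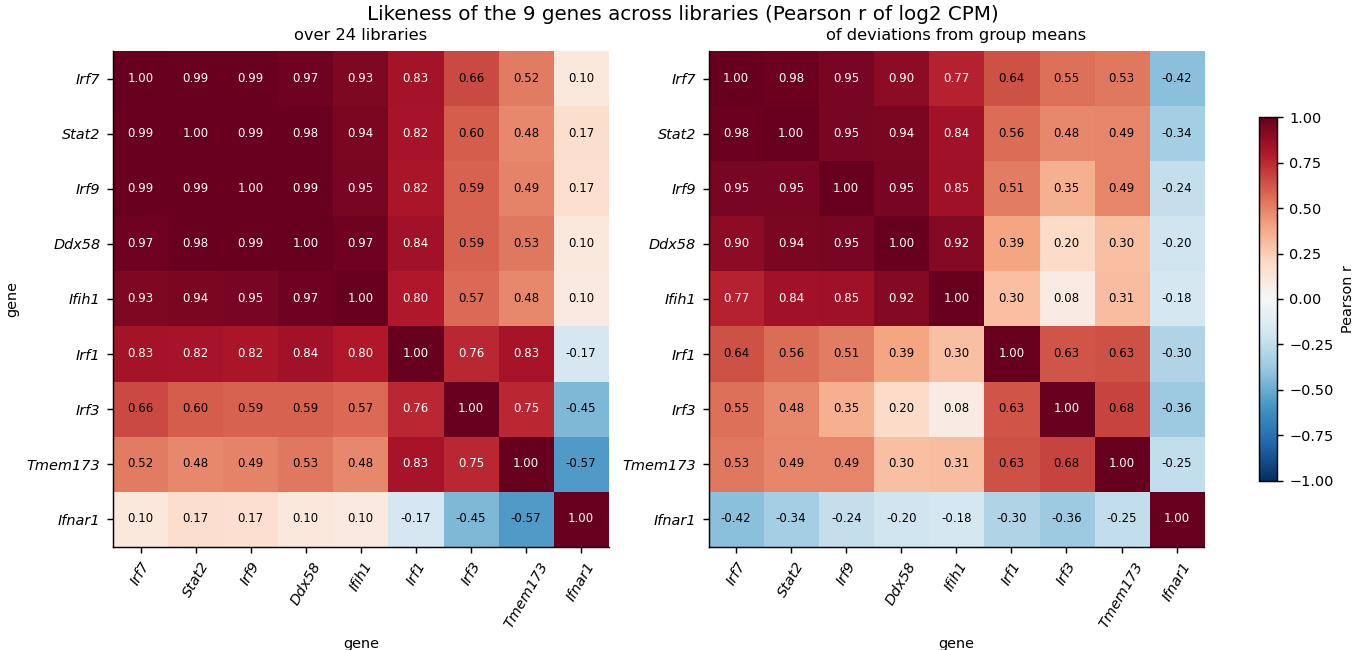
Pearson's r of log2 CPM between the 9 genes (both axes), over 24 libraries on the left and over deviations from the group means on the right; colour gives r from -1 to 1. Irf7, Stat2, Irf9, Ddx58 and Ifih1 form a block with r of at least 0.93 on the left, while Ifnar1 has r of 0.17 or less with every other gene.

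The tested genes most like each member over the 24 libraries were, for Irf7, Apol9a (r = 0.990), Isg15 (0.986) and Apol9b (0.979), where Apol9a and Apol9b are near-identical copies whose reads may be split by the counting. For Stat2 they were Rtp4 (0.986), Apol9a (0.984) and Isg15 (0.982), for Irf9 Isg15 (0.986), Apol9a (0.984) and Rtp4 (0.983), and for Ddx58 they included Isg15 (0.990) and Oasl2 (0.988). For Ifih1 they were Usp18 (0.976), Ifit1 (0.971) and Gbp7 (0.968). Irf1 was closest to Acaa2 (0.975), Pck2 (0.962) and Ifitm3 (0.957), Tmem173 to Fkbp5 (0.973), Slc43a1 (0.972) and Parp1 (0.961), and Irf3 to Snrpb (0.960), Trim28 (0.957) and Tnrc18 (0.955). Ifnar1 had no close match, the nearest being Ctns (0.916), Dkk3 (0.90) and Appl2 (0.893).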

How the data were processed

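Raw counts per gene were deposited by the authors for 24 libraries. Per the labels, RNA came from a NucleoSpin kit and libraries from a TruSeq Stranded kit; the submitters' processing notes name Trimmomatic 0.38, STAR 2.5.2b and GRCm38, while the counting tool, strand setting and gene annotation behind the counts were not given in the sources used here. Of 45706 identifiers 45143 were named from GENCODE M21. From the deposited counts edgeR 4.0.16 (R 4.3.3) was fitted with 1 mean per group, after filterByExpr (minimum count 10, minimum total 15) and TMM scaling, with quasi-likelihood tests, two-sided, adjusted over 16573 genes (Benjamini-Hochberg, threshold 0.05). All groups shared 1 estimate of the spread (common biological CV 7.73%, 16 residual degrees of freedom). CPM were computed from the counts, and per kb over exons of GENCODE basic transcripts; log2 CPM used a prior count of 2. The code was tested on simulated data.

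No replicate pair agreed within sampling noise (lowest chi-square per degree of freedom 2.77). Replicate numbers did not pair GFP with Cre libraries (r of deviations -0.092 to 0.035). Members and gene lists were chosen with earlier results of these data known, and so were the libraries named as standing apart. Genes named beside the 9 are, of each list, up to 4 with the smallest adjusted p in each of the Vhl and Vhl/Rassf1a comparisons of Cre with GFP and up to 2 in WT and in Rassf1a, those without counts, and the 3 with the highest r for each member; 1 gene that this rule names is not reported here. Alternatives were DESeq2 1.42.0, its size factors in edgeR, a filter of 1 count in total, a replicate block, fits of only the groups compared, and libraries left out.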

Additional observations from a re-analysis of the deposited data

Results flagged for a closer look

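The response of 7 of the 9 genes to Cre differed between genotypes by a test of the difference itself, in edgeR with adjustment over all genes. Of all genes tested 12.5% were lower and 23.2% called in Vhl against WT. In Vhl/Rassf1a against WT 7.40% were lower and 14.8% called. In Vhl against WT fibroblasts the log2 differences were -0.41 for Tmem173, -0.86 for Ddx58, -0.61 for Ifih1, -0.68 for Irf1, -1.58 for Irf7, -0.81 for Irf9 and -1.32 for Stat2. In Vhl/Rassf1a against WT fibroblasts they were -0.39 for Tmem173, -1.04 for Ddx58, -0.84 for Ifih1, -0.56 for Irf1, -1.89 for Irf7, -0.92 for Irf9 and -1.38 for Stat2. Ifih1 had the largest adjusted p in Vhl (0.0282) and Irf7 in Vhl/Rassf1a (0.00705). The GFP levels enter these differences. Irf7, Stat2, Irf9, Ddx58 and Ifih1 were higher in Vhl GFP than in WT GFP (log2 1.15, 0.97, 0.61, 0.54 and 0.38). In Vhl Cre against WT Cre they did not pass with all groups in the edgeR fit, while Tmem173 and Irf1 were lower there (-0.81 and -0.57). With 1 library left out, the Ifih1 difference in Vhl lost its call without WT GFP replicate 3 (adjusted p = 0.0873), WT Cre replicate 1 (0.0534) or 3 (0.0546), Vhl GFP replicate 2 (0.0757), or Vhl Cre replicate 2 (0.0575) or 3 (0.0613), and the Irf7 difference without WT Cre replicate 2 (0.0503). With the 2 libraries that stood apart left out, all 7 differences in Vhl/Rassf1a still passed, with Irf7 at -1.28 and Stat2 at -1.07.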

How the results depend on the processing

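No call among the 9 genes changed direction under any alternative run. Of 1665 values under alternatives 95 had the other sign, in 0 of which either value was called; with both libraries that stood apart left out there were 16, among them Irf7 (0.30 in place of -0.31) in the difference of Cre effects of Vhl/Rassf1a against Vhl. Scaling by DESeq2 size factors kept all 126 calls and non-calls, and the DESeq2 Wald test kept 123 and added 3. The replicate block kept 123 and lost 3: with the replicate block, adjusted p was 0.05 for Ddx58 in Rassf1a Cre against WT Cre (log2 0.43), 0.0559 for Ifih1 in Vhl GFP against WT GFP (0.38) and 0.0527 for Irf9 in Vhl/Rassf1a Cre against WT Cre (-0.40). Leaving out 1 library at a time kept 914 outcomes, lost 54 and added 4. The count of the 9 genes called with Cre against GFP stayed at 7 in Vhl fibroblasts and ranged over 7 to 8 in Vhl/Rassf1a fibroblasts, and stayed at 0 in WT and Rassf1a fibroblasts. For the differences of Cre effects it ranged over 6 to 7 in Vhl against WT, and stayed at 7 in Vhl/Rassf1a against WT. Against WT it ranged over 6 to 7 (Vhl GFP), 2 to 5 (Rassf1a GFP), 0 to 4 (Vhl/Rassf1a GFP), 3 to 4 (Vhl Cre), 0 to 5 (Rassf1a Cre) and 4 to 7 (Vhl/Rassf1a Cre).

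Fitting only the groups compared gave 9 of 9 genes in Vhl Cre against WT Cre, beside 8313 called over the whole table. It gave 0 in Vhl/Rassf1a GFP against WT GFP, beside 762. Leaving out both libraries that stood apart gave 1 in the latter, beside 2280. Without the filter the former gave 8, beside 7341. The main fit called 7413 genes in the former and 1913 in the latter. Over all genes, Cre against GFP in Rassf1a fibroblasts called 65, but 103 with the DESeq2 Wald test, 151 without the filter, 12 with only the groups compared, 114 without both libraries that stood apart, and 26 to 67 with 1 library left out; in WT fibroblasts it called 209, and 87 to 178 with 1 library left out. With only the groups compared the counts were 3037 for Cre against GFP in Vhl/Rassf1a, 1461 for Rassf1a GFP and 762 for Vhl/Rassf1a GFP against WT GFP. The difference of Cre effects called 0 (only the groups compared), 22 (no filter) and 2 (both libraries left out) genes in Rassf1a against WT, and 637 (only the groups compared) and 1859 (both libraries left out) in Vhl/Rassf1a against Vhl. The causes of these changes were not tested, except that fewer libraries enter the fits with groups or libraries left out. Irf7, with 173 to 2284 counts per library, had the widest intervals of the 9.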
